A study of Mus musculus with 4 samples.

Results

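Klf3, Klf4, Klf5, Elf1, Elf3, Ehf, Ets2, Grhl1 and Grhl2 encode transcription factors of the Klf, Ets and Grainyhead-like families that are widely used in epithelia. These 9 genes were chosen by name, with earlier results of these data known, and all 9 were found among the 55487 genes with an expected count. RNA was sequenced from stem cells that were sorted from intestinal crypts. The mice carried the Lgr5-EGFP-IRES-creERT2 allele, were 6 to 12 weeks of age and had received no treatment. In these mice green fluorescent protein (EGFP) is read from the locus of Lgr5, a receptor gene of crypt base stem cells. Large-intestinal stem cells (LISC, 2 libraries) were EGFP-positive cells from cecum to rectum, with no further gate named. Small-intestinal stem cells (SISC, 2 libraries) were EGFP-positive and CD24-negative. The named gate thus differs along with the intestine, and the 2 cannot be told apart in any difference given below. No label used here says whether animals were pooled or whether replicates came from separate animals. The p-values therefore stand for the spread among these libraries alone, which may be technical.

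Klf factors bind GC-rich and CACCC-containing DNA through zinc fingers at their carboxyl end. In the mouse intestine Klf5 is known from dividing crypt cells, Klf4 from cells that have left the cycle and from maturing goblet cells, and Klf3 as a repressor with broad use. Ets factors bind a GGAA core. Elf3 and Ehf are close relatives whose expression is largely limited to epithelia, Ets2 acts downstream of Ras and mitogen-activated kinases, and Elf1 is best known from blood cells. The Grainyhead-like factors Grhl1 and Grhl2 maintain cell junctions, Grhl2 through Cdh1 and claudin genes and Grhl1, in mouse skin, through desmosomal cadherins.

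Library totals ran from 12795434 to 27227715 expected counts. Transcripts of rRNA and mitochondrial genes took 41.2% and 8.63% of the counts in LISC replicates 1 and 2, and 38.2% and 7.44% in SISC replicates 1 and 2. Replicates 1 and 2 thus stood apart in both intestines. Differences between the 2 single libraries that share a replicate number, which have no test, are given beside the pooled ones. Libraries are compared in CPM, read counts scaled to a common library size with edgeR's TMM factors. Lgr5 stood at 147 and 89.7 CPM in LISC libraries and at 114 and 173 CPM in SISC libraries, with overlap (edgeR adjusted p = 0.957). Cd24a, whose product was gated in SISC alone, held 328 and 503 CPM in LISC libraries and 341 and 407 CPM in SISC libraries (0.994). All 8 stem cell markers were detected in each library and summed to 795 and 547 CPM in LISC and 8862 and 13641 CPM in SISC, of which Olfm4 alone, named after its values were seen, made up 91.5 and 108 CPM in LISC and 7765 and 12472 CPM in SISC. The 9 immune markers summed to 5.43 and 8.80 CPM in LISC and 6.91 and 5.62 CPM in SISC, and the 10 markers of stroma and vessels to 5.56 and 6.81 CPM in LISC and 7.13 and 2.81 CPM in SISC.

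None of these factor genes passed the test between the sorted cells of the 2 intestines, whose named gates differ, and all but Grhl1 had a fitted difference below 2-fold. None was called in LISC over SISC by edgeR's quasi-likelihood test at an adjusted p below 0.05. Of all 14165 tested genes 2.20% passed, 1.45% higher in LISC and 0.741% lower, so a lack of calls among 9 genes does not set them apart. At an unadjusted p below 0.05 there was 1, Grhl1, against 13.4% of all genes tested. DESeq2 also called 1, Grhl1, and called 6.96% of the genes to which it gave an adjusted p. Limma on log2(TPM + 1) called 0 of the 9, and of all 14165 tested genes it called 353 higher in LISC and 172 lower. The median absolute log2 difference was 0.39 over the 9 genes and 0.32 over all genes tested. The smallest fold among genes that edgeR called was 3.07. Elf3 had the only fitted difference below 0 and Grhl1 the one farthest from 0. Differences were above 0 for 8 of the 9, against 48.0% of all tested genes. The median log2 difference of the 9 genes was 0.39, and 0.17 and 0.41 within replicates 1 and 2, beside −0.02 over all genes tested. This median of the 9 was 0.24 without LISC replicate 2 and 0.23 with limma on log2(TPM + 1). LISC lay above SISC with no overlap for 5 of the 9, a pattern held by 21.9% of all genes tested, and below SISC for 1, a pattern held by 18.4%.

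**Figure D1:**
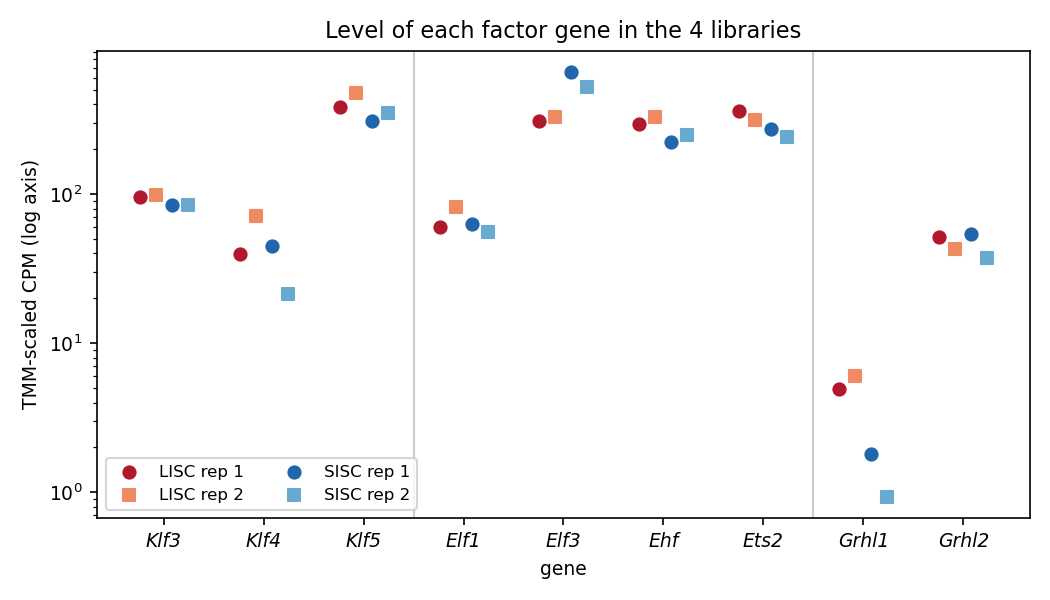
Level of each of the 9 genes, in TMM-scaled CPM on a log axis, with 1 point per library (red circles and orange squares for LISC replicates 1 and 2, dark blue circles and light blue squares for SISC replicates 1 and 2). Elf3 is lower in both LISC libraries than in both SISC libraries, Grhl1 is higher in both LISC libraries, and the points of Klf4, Elf1 and Grhl2 interleave.

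Levels of different genes can be set side by side only per transcript length, as TPM within a library. Elf3 ranked highest of the 9 genes in every library, at 114 and 234 TPM in LISC and 270 and 341 TPM in SISC. Klf5 came next in every library, at 76.7 and 191 TPM in LISC and 69.6 and 129 TPM in SISC. Ehf and Ets2 held the next places, with Ets2 above Ehf in LISC replicate 1 alone, so their order did not differ beyond the spread between libraries. Below them Klf3 and Elf1, at 10.4 to 28.3 TPM over all libraries, and Klf4 and Grhl2, at 8.07 to 33.4 TPM, also changed places between libraries. Grhl1 was last in every library, at 0.98 and 2.5 TPM in LISC and 0.44 and 0.37 TPM in SISC. Elf3 exceeded 96.6% of the tested genes in mean TPM in LISC and 97.8% in SISC, while Grhl1 exceeded 21.9% in LISC and 9.81% in SISC.

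Stretches just upstream of Elf3, Grhl1 and Klf4 are shown because these genes had the fitted differences farthest from 0. RefSeq start sites on GRCm38.p6 were available for 6 of the 9 genes, and the bases before both the RefSeq and the GENCODE start are given 5′ to 3′ on the strand of the gene. Capitals mark CACCC, the Klf box, and GGGCGG, the GC box bound by Sp and Klf factors, each on either strand (GGGTG and CCGCCC on the opposite one). CCGGAA for Ets factors, with TTCCGG, and AACCGGTT for Grainyhead-like factors were searched as well.
Elf3 (chr1:135258569-135258722, minus strand): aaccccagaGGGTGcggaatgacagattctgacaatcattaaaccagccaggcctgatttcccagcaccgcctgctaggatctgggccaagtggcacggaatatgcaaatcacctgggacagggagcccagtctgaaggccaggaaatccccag
Grhl1 (chr12:24572037-24572282, plus strand): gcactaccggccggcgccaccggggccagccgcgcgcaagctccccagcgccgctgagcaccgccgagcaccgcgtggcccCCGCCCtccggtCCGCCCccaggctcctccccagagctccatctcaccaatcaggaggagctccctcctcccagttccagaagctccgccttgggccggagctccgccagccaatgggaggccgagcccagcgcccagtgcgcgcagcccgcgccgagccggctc
Klf4 (chr4:55532476-55532725, minus strand): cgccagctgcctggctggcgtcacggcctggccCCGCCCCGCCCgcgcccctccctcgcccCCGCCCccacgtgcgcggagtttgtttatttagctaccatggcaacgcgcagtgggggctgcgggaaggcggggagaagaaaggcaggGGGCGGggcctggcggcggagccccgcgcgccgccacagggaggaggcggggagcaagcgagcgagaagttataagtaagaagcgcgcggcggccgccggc
Upstream of Elf3 there was 1 Klf box, present in 36% of 32851 promoter windows of the same length, and no GC box, present in 17.3%. All windows were counted from 250 bases before the RefSeq start, so those cut to the lengths of Elf3 and Grhl1 end short of it. Grhl1 had 2 GC boxes and Klf4 had 4, of which a neighbouring pair shares a base, and neither had a Klf box, which 51.5% and 52% of windows of these lengths held. A GC box occurred in 32.2% and 32.7% of all windows of these lengths. Neither CCGGAA nor AACCGGTT occurred in any of the 3 stretches, and they occurred in 5.62% to 12% and in 0.0791% to 0.116% of all windows of these lengths. The shorter GGAA core, which each of the 3 stretches holds on either strand, was not counted over all windows. The stretch of Elf3 held 55.8% G and C, that of Grhl1 76.0% and that of Klf4 74.0%, beside medians of 50.7%, 52.0% and 52.4% over all windows of the same lengths.

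Klf5 (ENSMUSG00000005148; chromosome 14, 99298691 to 99315036, GRCm38) was the most abundant Klf gene. Levels were 383 and 475 CPM in the LISC libraries and 309 and 347 CPM in the SISC libraries. Both LISC libraries lay above both SISC libraries. The log2 difference was 0.39 ± 0.34 (SE), with a 95% interval of −0.49 to 1.26 (edgeR adjusted p = 0.842), and 0.31 and 0.45 within replicates 1 and 2. Without LISC replicate 2 it was 0.24, the lowest value of any setting.

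Klf4 (ENSMUSG00000003032; chromosome 4, 55527143 to 55532466) had the widest fold between replicates of the 9 genes in either group. Its level was 39.5 and 71.8 CPM in LISC and 44.8 and 21.4 CPM in SISC. The groups overlapped, since LISC replicate 1 lay below SISC replicate 1. The log2 difference was 0.75 ± 0.49 (95% interval −0.51 to 2.02; edgeR adjusted p = 0.715), but −0.18 within replicate 1 and 1.75 within replicate 2. It was 0.27 without LISC replicate 2, 0.28 without SISC replicate 2 and 1.38 without SISC replicate 1.

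Goblet cells are the mucus-making cells in which Klf4 is known to be used. The 10 goblet markers, all detected in each library, summed to 3422 and 5781 CPM in LISC and to 2135 and 460.8 CPM in SISC. For the goblet sum as for Klf4, LISC replicate 2 was the highest library and SISC replicate 2 the lowest. The gel-forming mucin gene Muc2 had 1045 and 1147 CPM in LISC and 358 and 17.1 CPM in SISC. Not every goblet marker followed the sum, since Tff3, Clca1, Zg16 and Ccl9 were lower in LISC replicate 1 than in SISC replicate 1. The markers' part in the value of Klf4 was not tested, and in bulk libraries fewer cells of a type and less RNA per cell cannot be told apart. Tuft cell markers summed to 90.1 and 152 CPM in LISC and 23.0 and 4.87 CPM in SISC, and Paneth cell markers to 54.9 and 29.0 CPM in LISC and 8758 and 1348 CPM in SISC. Colonocyte markers summed to 389 and 1573 CPM in LISC and 110 and 46.6 CPM in SISC, and enterocyte markers to 270 and 390 CPM in LISC and 581 and 708 CPM in SISC. The colonocyte marker Krt20 overlapped between the groups, as did the enterocyte markers Fabp2 and Slc5a1 and the stem cell markers Lgr5, Ascl2, Rnf43 and Znrf3. Enteroendocrine markers overlapped, at 79.9 and 111 CPM in LISC and 180 and 30.3 CPM in SISC. EdgeR called 0 of the goblet, tuft and Paneth markers, 1 colonocyte and 1 enteroendocrine marker higher in LISC, and 3 enterocyte and 2 stem cell markers lower.

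**Figure D2:**
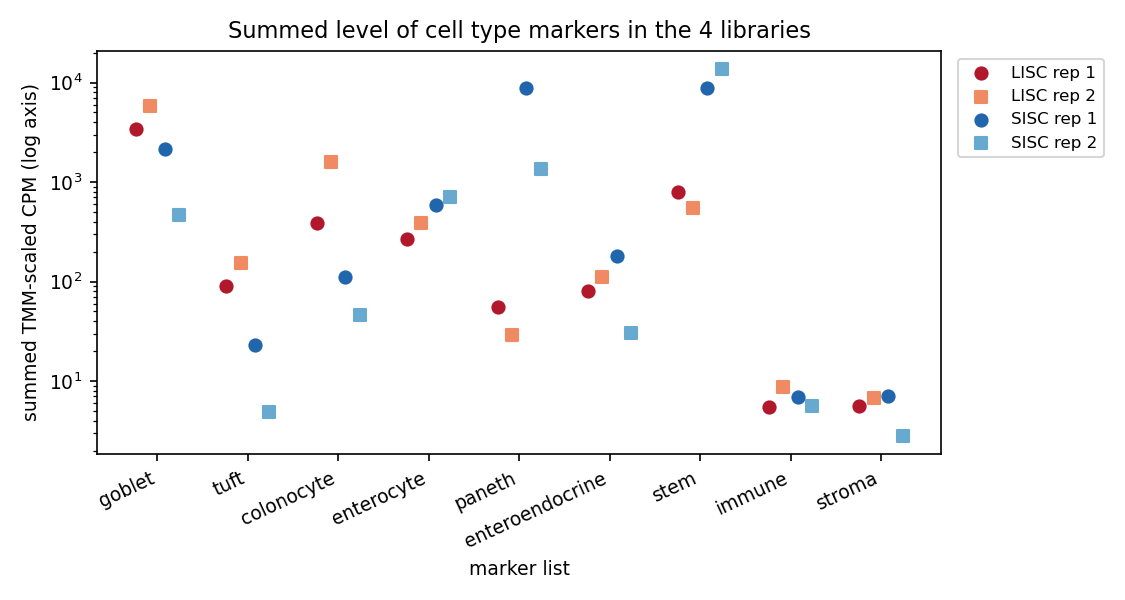
Summed TMM-scaled CPM of each cell type marker list on a log axis, with 1 point per library (red circles and orange squares for LISC replicates 1 and 2, dark blue circles and light blue squares for SISC replicates 1 and 2). Sums of goblet, tuft and colonocyte markers are higher in both LISC libraries, and those of Paneth, enterocyte and stem cell markers in both SISC libraries. Sums of immune and stromal markers stay below 10 CPM throughout.

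Klf3 (ENSMUSG00000029178; chromosome 5, 64803388 to 64832901) was the steadiest of the Klf genes. Its LISC libraries held 95.1 and 98.3 CPM and its SISC libraries 84.6 and 84.7 CPM. The groups did not overlap, yet the log2 difference was only 0.19 ± 0.25 (95% interval −0.46 to 0.84; edgeR adjusted p = 0.951). Its 2 SISC libraries differed by less than those of any other of the 9 genes.

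Elf3 (ENSMUSG00000003051; chromosome 1, 135253575 to 135258568) had less RNA in both LISC libraries than in both SISC libraries, the only 1 of the 9 genes to do so. Levels were 308 and 328 CPM in the LISC libraries and 659 and 518 CPM in the SISC libraries. The LISC mean was 318 ± 14.2 CPM and the SISC mean 589 ± 99.1 CPM (SD, n = 2 each), a fitted ratio of 1.85 for SISC over LISC. The log2 difference of −0.89 ± 0.35 (95% interval −1.80 to 0.02) did not pass edgeR's test (adjusted p = 0.384), and was −1.10 and −0.66 within replicates 1 and 2. Over 14 alternative settings it stayed between −1.07 and −0.71, and no setting called it, with adjusted p from 0.0526 to 1 and of 0.0898 with DESeq2. Enterocyte and Paneth cell marker sums were also higher in both SISC libraries, and their part in the value of Elf3 was not tested.

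Ehf (ENSMUSG00000012350; chromosome 2, 103263433 to 103303278), the near relative of Elf3, leaned the other way in counts. The LISC libraries held 293 and 329 CPM and the SISC libraries 224 and 248 CPM. Both LISC libraries were above both SISC libraries. The log2 difference was 0.40 ± 0.31 (95% interval −0.40 to 1.19; edgeR adjusted p = 0.797). Scaled per transcript length, as log2(TPM + 1), it was 0.07, with a longer estimated transcript in LISC.

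Ets2 (ENSMUSG00000022895; chromosome 16, 95702075 to 95721051) was read at 360 and 315 CPM in LISC and at 275 and 240 CPM in SISC. The groups did not overlap. Its log2 difference was 0.39 ± 0.32 (95% interval −0.43 to 1.21; edgeR adjusted p = 0.812), and 0.39 and 0.40 within replicates 1 and 2. Elf1 (ENSMUSG00000036461; chromosome 14, 79481194 to 79582494) was read at 60.5 and 82.5 CPM in LISC and at 62.9 and 56.1 CPM in SISC, with overlapping groups. Its log2 difference was 0.27 ± 0.28 (95% interval −0.47 to 1.0; edgeR adjusted p = 0.907), and −0.06 and 0.56 within replicates 1 and 2. Leaving out LISC replicate 2 gave 0.04, leaving out SISC replicate 2 gave 0.16 and leaving out LISC replicate 1 gave 0.47.

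Grhl1 (ENSMUSG00000020656; chromosome 12, 24572283 to 24617391) was the least abundant of the 9 and the one with the largest fitted fold. It had 53 and 176 expected counts in LISC and 25 and 30 in SISC, or 4.91 and 6.05 CPM in LISC and 1.82 and 0.937 CPM in SISC. Both LISC libraries lay above both SISC libraries. The LISC mean was 5.48 ± 0.805 CPM and the SISC mean 1.38 ± 0.624 CPM (SD, n = 2 each). The fitted ratio of 4.03 for LISC over SISC, a log2 difference of 2.01 ± 0.56 (95% interval 0.56 to 3.46), missed the threshold in edgeR (adjusted p = 0.195). It was 1.43 and 2.69 within replicates 1 and 2. DESeq2 called it, with a log2 difference of 1.99 (adjusted p = 0.0455), and the adjusted p over all settings ran from 0.0455 to 1. On the log2(TPM + 1) scale, which understates changes of low genes, the difference was 0.91.

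Grhl2 (ENSMUSG00000022286; chromosome 15, 37233036 to 37363569), the paralog that controls Cdh1, was read at 51.7 and 43.0 CPM in LISC and at 53.6 and 37.0 CPM in SISC. The groups overlapped, and the log2 difference was 0.06 ± 0.30 (95% interval −0.71 to 0.83; edgeR adjusted p = 0.9995), with its sign depending on the setting. Within a library Grhl1 stood at 0.121 and 0.168 of the TPM of Grhl2 in LISC and at 0.0398 and 0.0324 in SISC. This ratio does not depend on how libraries are scaled, and its LISC values were both above its SISC values. Its log2 value was 1.99 higher in LISC, against SDs of 0.33 in LISC and 0.21 in SISC. An exact permutation test of 2 libraries against 2 cannot give a p below 0.333, so none was run on ratios.

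**Figure D3:**
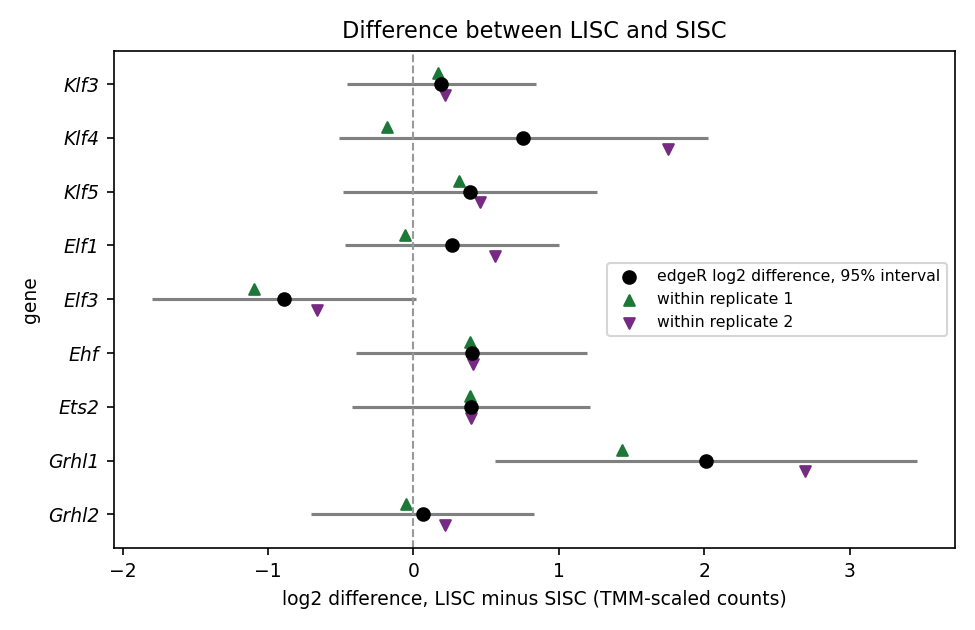
Log2 difference of LISC minus SISC for each of the 9 genes, as edgeR's estimate (black points) with its 95% interval (grey lines) and as the difference between single libraries of replicate 1 (green) and replicate 2 (purple). The interval of Grhl1 is the only 1 that lies wholly above 0, that of Elf3 ends at 0.02, and the 2 single-library differences of Klf4 stand on either side of 0.

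Ratios of other paired family members were also taken within each library. In TPM Ehf itself overlapped between the groups, at 50.3 and 122 in LISC and 58.2 and 95.2 in SISC. Elf3 was lower in TPM in both LISC libraries than in both SISC libraries. Ehf stood at 0.442 and 0.520 of the TPM of Elf3 in LISC and at 0.215 and 0.279 in SISC, so that LISC values were above both SISC values. The log2 ratio was 0.97 higher in LISC, with SDs of 0.17 in LISC and 0.26 in SISC, and 1.28 higher with expected counts in place of TPM. The other 3 ratios overlapped between the groups. Klf4 over Klf5 was 0.119 and 0.175 in LISC and 0.162 and 0.0695 in SISC. Klf3 over Klf5 was 0.176 and 0.148 in LISC and 0.209 and 0.170 in SISC, and Elf1 over Ets2 was 0.156 and 0.253 in LISC and 0.209 and 0.222 in SISC.

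The Klf and Ets members accounted for much of the TPM of their families. The 4 Ets members Elf3, Ehf, Ets2 and Elf1 made up 73.3% and 74.6% of the summed TPM of 26 Ets family genes in LISC and 80.3% and 81.8% in SISC. Elf3 alone made up 34.6% and 35.4% in LISC and 54.6% and 52.4% in SISC, with the libraries of a group close to each other and the groups apart. The 3 Klf members made up 61.3% and 68.0% of the summed TPM of 26 Klf and Sp genes in LISC and 35.2% and 50.7% in SISC. Klf5 made up 47.3% and 51.4% in LISC and 25.7% and 40.9% in SISC. In SISC replicate 1 much of the remainder was Klf6, a factor gene induced early after stimulation, with 18.8% of the family sum there, against 6.30% and 4.30% in LISC and 7.18% in SISC replicate 2. Of the summed TPM of 9 Grainyhead, CP2 and Ovol genes, Grhl2 made up 18.8% and 17.1% in LISC and 21.7% and 14.8% in SISC, and Grhl1 2.28% and 2.87% in LISC and 0.863% and 0.478% in SISC.

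**Figure D4:**
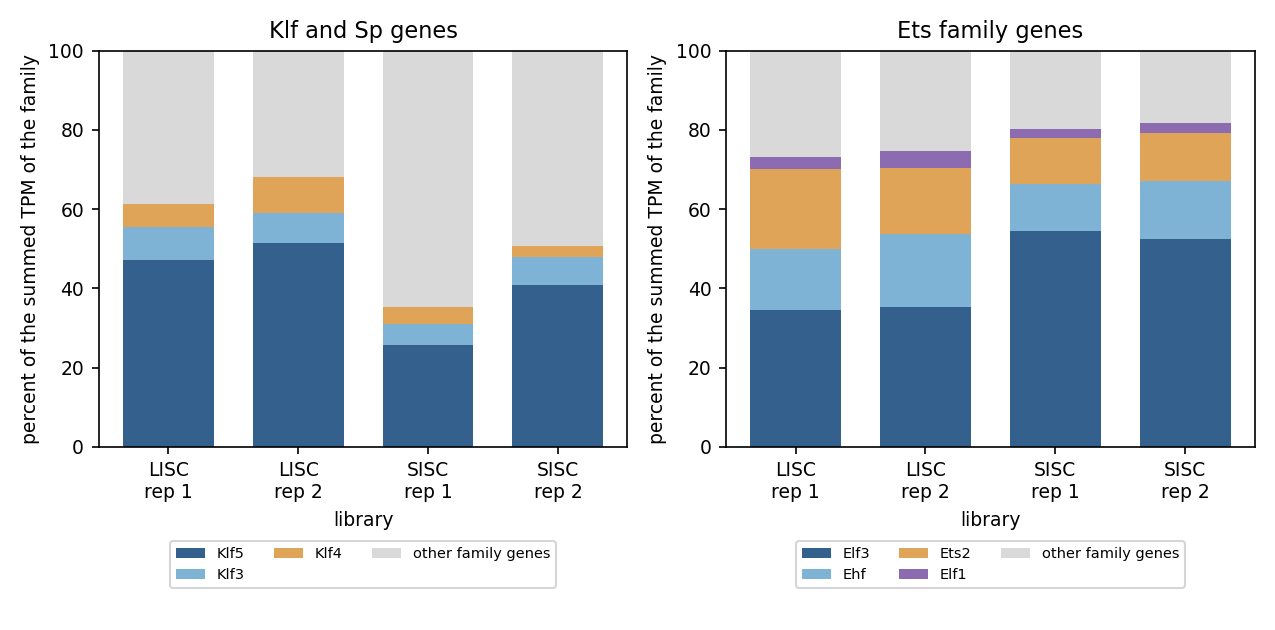
Share of the summed TPM of 26 Klf and Sp genes (left) and of 26 Ets family genes (right) held by each of the named genes in each library, stacked to 100%, with all other genes of the family in grey. Elf3 holds 34.6% and 35.4% of the Ets sum in LISC and 54.6% and 52.4% in SISC, and Klf5 holds the largest coloured share of the Klf and Sp sum in every library.

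Relatives outside the 9 genes included some that were called. Over all 14165 tested genes edgeR called 2.20%, and 13.4% had an unadjusted p below 0.05. DESeq2 called 6.96% of the genes with an adjusted p. Limma on log2(TPM + 1) called 353 of the tested genes higher in LISC and 172 lower. These shares apply to each list below. Of 15 other tested Klf and Sp genes, edgeR called 0 higher in LISC and 1 lower, Sp5, a Wnt target gene. Sp5 was read at 6.58 and 6.5 CPM in LISC and at 30.0 and 37.5 CPM in SISC, a 5.17-fold higher level in SISC (edgeR adjusted p = 0.0299) that lost its call without LISC replicate 1 (log2 −2.38) or LISC replicate 2 (−2.35), with library totals as the only scaling (−2.37; adjusted p = 0.0587) and with limma (−2.07 on log2(TPM + 1); 0.148). Fitted differences of 11 of these 15 genes were below 0, and their median was −0.34. At an unadjusted p below 0.05 there were 4, and DESeq2 called 4 and limma 0. The Klf and Sp genes with the highest mean TPM after the members were Klf6 and Klf10, both induced early by growth factor signals, and Sp3, a broadly used factor. Klf6 was read at 48.9 and 49.9 CPM in LISC and at 274 and 75.8 CPM in SISC (edgeR adjusted p = 0.316). Klf10 was read at 16.5 and 26.9 CPM in LISC and at 76.2 and 51.6 CPM in SISC (edgeR adjusted p = 0.141), and Sp3 had a log2 difference of −0.34 (0.874).

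Of 14 other tested Ets genes, edgeR called 1 higher in LISC, Etv5, a factor gene known as a target of fibroblast growth factor and ERK signals, and 0 lower. Etv5 was read at 33.1 and 35.8 CPM in LISC and at 2.84 and 3.03 CPM in SISC, an 11.7-fold higher level in LISC (edgeR adjusted p = 0.0168). The median of these 14 was −0.05, and 6 had an unadjusted p below 0.05, against 13.4% of all genes tested. DESeq2 called 4, against 6.96% of the genes with an adjusted p, and limma 1. Spdef, a factor gene of goblet cells, was read at 46.4 and 53.5 CPM in LISC and at 16.8 and 3.03 CPM in SISC and did not pass (edgeR adjusted p = 0.298). Etv6, a repressor best known from blood cells, had 64.3 and 54.2 CPM in LISC and 143 and 134 CPM in SISC (0.120), and Elf2, a relative of Elf1, had a log2 difference of −0.32 (0.805).

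Among 6 other tested genes of the Grainyhead, CP2 and Ovol group, edgeR called 1 higher in LISC and 0 lower. This was Tfcp2l1, of the CP2 branch of the same superfamily as the Grhl genes. Its level was 89.2 and 86.3 CPM in the LISC libraries and 9.17 and 4.12 CPM in the SISC libraries, a 13.3-fold higher level in LISC (edgeR adjusted p = 0.0393). DESeq2 and limma each called 1 of the 6, against 6.96% of all genes with an adjusted p in DESeq2. At an unadjusted p below 0.05 edgeR gave 1 of the 6, against 13.4% of all genes tested. Of the settings tried, only limma with no filter on low values, which called 0 genes in all, ended the calls of Etv5 and Tfcp2l1. The log2 difference of Tfcp2l1 was 3.74, against 4.40 without SISC replicate 1 and 3.24 without SISC replicate 2. Ubp1, another CP2 gene, and the zinc finger genes Ovol1 and Ovol2, known as guardians of the epithelial state, had log2 differences of −0.15, −0.63 and −0.16, and none passed (edgeR adjusted p = 0.972, 0.508 and 0.995).

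Genes reported as targets of these factors were set beside them. Of 21 junction and epithelial genes reported for Grhl2, edgeR and limma called 0 and DESeq2 called 1. At an unadjusted p below 0.05 edgeR gave 1, against 13.4% of all genes tested, and 20 of the 21 differed by less than 2-fold. Epcam, the epithelial adhesion molecule, was read at 945 and 1330 CPM in LISC and at 802 and 1304 CPM in SISC. Cldn7 and Cldn3, claudins of tight junctions and the lateral membrane, had log2 differences of −0.08 and −0.44. Cldn4, another claudin gene, was the list's 1 gene beyond 2-fold and is named after its values were seen. Its LISC libraries held 9.91 and 6.91 CPM and its SISC libraries 76.8 and 27.4 CPM. The difference on the log2 scale was −2.63 ± 0.57, with an edgeR adjusted p of 0.117. Over the list the median was −0.07, close to the −0.02 over all genes tested.

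Of 12 genes reported for Elf3 or Ehf, edgeR called 0 higher in LISC and 1 lower, Nos2, the inducible nitric oxide synthase gene. Nos2 was read at 2.41 and 1.89 CPM in LISC and at 15.1 and 15.9 CPM in SISC, a 7.26-fold higher level in SISC (edgeR adjusted p = 0.0308), and its call was lost without LISC replicate 2 (log2 −2.67) and without SISC replicate 2 (−2.84), and with limma on log2(TPM + 0.1) (−2.65; adjusted p = 0.0504). Tgfbr2, the TGF-beta receptor gene that depends on Elf3 in the mouse small intestine, is named after its values were seen. It was read at 108 and 98.0 CPM in LISC and at 20.6 and 29.5 CPM in SISC (edgeR adjusted p = 0.0522), with both LISC libraries above both SISC libraries. Neither Tgfbr2 nor Elf3 passed edgeR's test, and a link between their values was not tested. Pigr, the antibody transporter gene, and the keratin genes Krt19 and Krt8 had log2 differences of 0.24, 0.29 and 0.08. The list's median was 0.27, and 6 of its genes had an unadjusted p below 0.05, against 13.4% of all genes tested. DESeq2 and limma each called 4 of the 12. Over all genes DESeq2 called 6.96% of those with an adjusted p, and limma called 353 higher in LISC and 172 lower of 14165.

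Of 14 proliferation genes reported with Klf5, edgeR, DESeq2 and limma each called 0, edgeR gave 0 at an unadjusted p below 0.05, and all 14 differed by less than 2-fold. Pcna, the DNA polymerase clamp, was read at 196 and 286 CPM in LISC and at 198 and 320 CPM in SISC. Top2a, a topoisomerase of dividing cells, and Cdk1, the mitotic kinase, had log2 differences of −0.59 and −0.21. The list's median was −0.32, below 0 while that of Klf5 was 0.39. Of 12 genes reported for Klf4, edgeR called 0, DESeq2 called 3 and limma 2, and 3 had an unadjusted p below 0.05 in edgeR. For both lists, the shares over all genes were 13.4% at that unadjusted p and 6.96% by DESeq2. Krt19, Tff3 and Muc2 had the highest mean TPM of these genes. Tff3, a goblet cell peptide gene, was read at 163 and 427 CPM in LISC and at 171 and 87.2 CPM in SISC (edgeR adjusted p = 0.562). Its order of libraries was that of Klf4, and a link between them was not tested. The median of these 12 was 0.36, and Muc2 and Tff3 are goblet markers too.

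RSEM gives each gene a length that is the mean of its annotated transcripts weighted by their estimated abundance, so it moves with the choice of isoform. Ehf, with 8 annotated transcripts of 530 to 4469 bases, had the largest shift. Its length was 3850 and 3626 bases in LISC and 2943 and 3243 bases in SISC, a mean of 645 bases more in LISC. Grhl1, with 4 transcripts of 3070 to 3469 bases, was also longer in LISC, at 3349 and 3268 bases against 3140 and 3178 bases in SISC. Klf4 was shorter in LISC, at 2920 and 2919 bases against 3029 and 2991 bases in SISC, where 3029 bases is its longest annotated transcript. Elf3 was shorter by 36.1 bases on average in LISC. So 2 of the 9 genes were longer and 2 shorter in LISC with no overlap, a state found in 12.1% and 13.1% of the 11748 tested genes with more than 1 transcript. The lengths of Grhl1 rest on 25 to 176 counts per library, and what part library preparation had in these lengths was not tested.

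**Figure D5:**
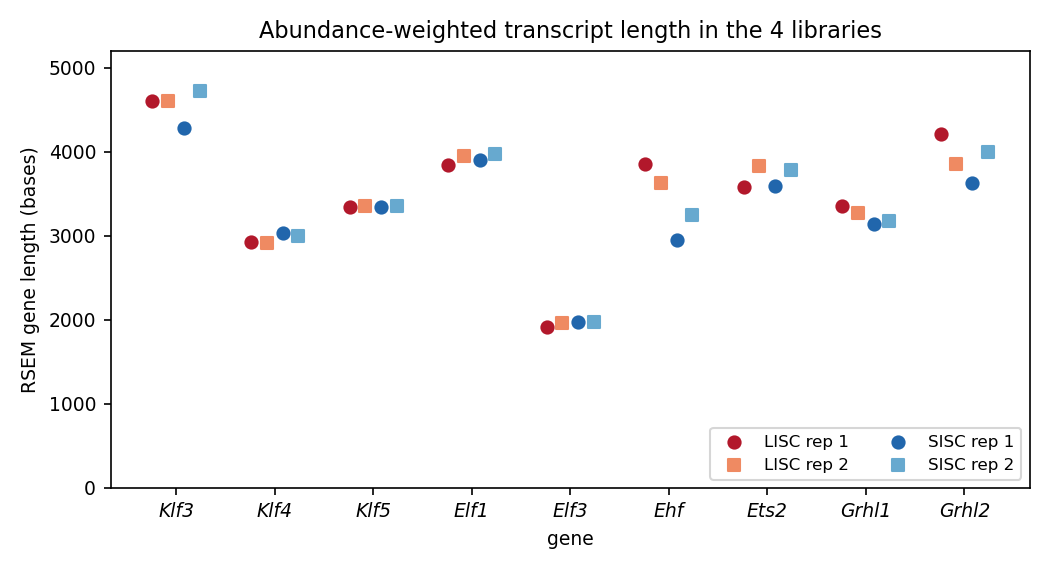
Transcript length of each of the 9 genes, weighted by the estimated abundance of its annotated transcripts, in bases, with 1 point per library (red circles and orange squares for LISC replicates 1 and 2, dark blue circles and light blue squares for SISC replicates 1 and 2). Ehf shows 3850 and 3626 bases in LISC and 2943 and 3243 bases in SISC, and Klf5 stays between 3336 and 3351 bases in all libraries.

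For each of the 9 genes, the gene most like it was taken as the tested gene with the smallest Euclidean distance in log2(TPM + 1), centred on its mean over the 4 libraries. Library depth and rRNA content differed between replicates 1 and 2, so the distances describe these libraries alone. Elf3 was nearest to Jund, a gene of the AP-1 factor JunD, at a distance of 0.0467 with 58.7 and 126 TPM in LISC and 145 and 182 TPM in SISC. Klf4 was nearest to Cdkn1c, a cyclin-dependent kinase inhibitor gene, at 0.0892, with 1.23 and 6.01 TPM in LISC and 1.66 and 1.17 TPM in SISC. Klf5 was nearest to Arl8b (0.0261), Klf3 to Lrrfip1 (0.0265), Elf1 to Glipr2 (0.0224), Ehf to Prpsap2 (0.0211), Ets2 to Slc22a3 (0.0182), Grhl1 to Gm2115 (0.0337) and Grhl2 to Fcho2 (0.0372). Slc22a3, at 0.08 to 1.06 TPM over the libraries, and Gm2115, at 0.02 to 1.53 TPM, are low genes whose differences the added 1 makes smaller. As a fold of TPM Gm2115 differed more between the groups than Grhl1 did, but its SISC values were only 0.07 and 0.02 TPM. Among the 9 genes themselves, Ehf and Klf3 were each other's nearest, at 0.205, and Elf3 was farthest from its nearest fellow, Grhl2, at 0.899.

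Annotated genes overlap Klf3, Elf1, Elf3 and Grhl2. No source used here gives a strand setting for the read counts, so reads of antisense pairs within shared stretches cannot be told apart. Wbp4, on the strand opposite to Elf1, shares 327 bases with it and had 214 and 869 expected counts in LISC and 293 and 1060 in SISC. Gm16136, antisense to Grhl2, shares 274 bases with it and had 56 and 231 expected counts in LISC and 24 and 149 in SISC. Gm26642, annotated as antisense across the whole of Elf3, had 0 counts in 3 libraries and 1 in SISC replicate 2. C230096K16Rik, on the same strand as Klf3, shares 1722 bases with it and had 51 and 58 expected counts in LISC and 41 and 76 in SISC.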

How the data were processed

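Libraries of polyadenylated RNA keep the strand, per the labels' protocols, and the 4 of them were grouped by their titles. The submitters' processing notes name STAR 2.7.2b, RSEM 1.2.31 and the build GRCm38 (mm10). The authors deposited RSEM's expected counts, which divide ambiguous reads among genes by estimated abundance, and TPM values, which are scaled by effective length. The gene lengths are from the same deposited tables. For the annotation release and strand setting the sources used here give nothing.

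Identifiers were matched to GENCODE vM21, where 55227 of 55487 had a symbol, which also gave the 1-based gene coordinates. The expected counts were then rounded and fitted in R 4.3.3 with edgeR 4.0.16 (filterByExpr with a minimum count of 10, TMM, quasi-likelihood test, group as the only term), with Benjamini-Hochberg adjustment over all 14165 genes kept. Standard errors are approximate, the log2 difference over the square root of F, and intervals are their 95% t intervals. DESeq2 1.42.0 and limma 3.58.1 served as alternatives. The fits were also run on simulated counts, with a spread set below that of these libraries and no replicate effect. That run therefore does not show how the fits perform on these libraries. Replicates of a group were separate libraries by their counts (chi-square over degrees of freedom 833 in LISC, 892 in SISC). Named besides the 9 genes are called genes of 7 lists of relatives and reported targets, the 3 most abundant other genes of each list, and the nearest gene of each. The genes and lists were chosen with earlier results of these data known.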

Additional observations from a re-analysis of the deposited data

How the results depend on the processing

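No setting among 14 changed the side of the threshold for 8 of the 9 genes; the exception was Grhl1, called by DESeq2. Of 126 values, 120 kept direction and call and 5, all of Grhl2, changed sign: −0.028 with limma on log2(TPM + 1), with or without a filter on low values, −0.036 on log2(TPM + 0.1), −0.075 without LISC replicate 1 and −0.20 without SISC replicate 2. Leaving out each library in turn gave Grhl2 −0.20 to 0.35. The median over all tested genes stayed within 0.06 of 0 in each setting. Genes called higher and lower in LISC over all tested numbered 206 and 105, but 769 and 384 by DESeq2, 942 and 465 in edgeR without a low-count filter, 353 and 172 with limma on log2(TPM + 1), 372 and 179 on log2(TPM + 0.1), 0 and 0 with limma and no filter on low values, and 166 to 338 and 79 to 149 leaving out 1 library each; the cause was not tested. Members called higher in LISC numbered 1 with DESeq2. Of the list genes outside the members, 4 were called, but 17 by DESeq2, 20 in edgeR without a low-count filter, 7 with a stricter filter (50 counts), 8 with limma on log2(TPM + 1), 0 with limma and no filter on low values, and 4 to 8 leaving out 1 library each. The log2 ratio of Ehf over Elf3 was 1.28 higher in LISC with expected counts and 0.97 with TPM.

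Replicate numbers are shared by the groups, but no label says what they mark, so they are taken as names only. With a replicate block edgeR called 1015 and 524 genes higher and lower in LISC and 14 list genes, and 0 of the 9 members. In that edgeR fit Elf3 (log2 −0.88, adjusted p = 0.0526) and Grhl1 (2.08, adjusted p = 0.0564) lay just above the threshold. Libraries with the same number deviated together (correlation of 0.648 across genes, which are not replicates). Grhl1 rests on 25 to 176 counts per library.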
